A study of Homo sapiens with 6 samples.

Results

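Autophagy is the route by which a cell wraps part of its own cytoplasm in a double membrane, the autophagosome, and delivers it to the lysosome, where it is broken down. When the cargo is a mitochondrion the process is called mitophagy, and it is well known in the red cell lineage, in which maturing cells clear their mitochondria with the help of the receptor BNIP3L. A set of 40 genes of this pathway was read on arrays of K562 cells with and without the PU.1 isoform PU.2, and all 40 were measured, among 18417 genes in all. The set was a fixed list of symbols, chosen with earlier results of these data known. Each gene was read by the brightest probe set that carries its symbol alone. It covers the initiating kinase, the lipid kinase, the lipid transfer proteins, the ubiquitin-like conjugation enzymes, the ATG8 proteins, the cargo receptors, mitophagy and the transcription factors FOXO3 and TFEB.

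K562 is a human cell line from a chronic myeloid leukemia that can take on erythroid features. The arrays compared 3 monoclonal lines with the empty puromycin resistance vector pEF1α (vector clones) with 3 carrying pEF1α-Pu.2 (PU.2 clones), which expresses murine PU.2, an isoform without the activation domain at the N-terminus of PU.1 that keeps the ETS DNA-binding domain. All 6 lines were electroporated and selected in 2 µg/mL puromycin, each is 1 clone, and 1 array of total RNA was read per line, so n counts clones and the spread between clones is the error of each comparison. As for culture, an insect cell medium at 24 °C stands in the labels and RPMI in the methods. Values are log2 probe set values as deposited, and a difference of 1 is a 2-fold change. Since probe sets differ in brightness, levels are not compared between genes, apart from sums over marker lists. In these sums, and in the share of a gene in them, brighter probe sets weigh more. The median value of all probe sets was 5.37, and 36 of the 40 genes lay at or above it. The K562 markers GATA1, TAL1, KLF1, HBE1, HBZ, TFRC and NFE2 lay above it in all 6 lines. Groups were compared with limma over all genes with Benjamini-Hochberg adjustment, and a gene is called at an adjusted p under 0.05.

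In the PU.2 clones 1 of the 40 genes, OPTN, rose, and the others did not pass the test. OPTN encodes optineurin, a receptor that binds ubiquitin on damaged mitochondria or bacteria and hands them to the ATG8 proteins. Of the 40 genes 1 was called higher and 0 lower, whereas of all genes 0.147% were called higher and 0.223% lower, or 0.369% together. At an unadjusted p under 0.05, 2 of the 40 were higher, OPTN and BNIP3L, and 3 lower, PIK3C3, ATG5 and WIPI1, beside 3.83% higher and 5.70% lower over all genes. The groups did not overlap in 2 genes that were higher (OPTN and BNIP3L) and 3 that were lower (PIK3C3, ATG5 and ATG4B), against 7.02% and 6.80% of all genes. A log2 fold change above 0 was found in 18 of the 40 (45%; all genes 54.1%), and one of at least 0.5 in size in 4 of the 40 (10%; all genes 5.99%). The median log2 fold change was -0.02 over the 40 genes and 0.02 over all genes. The smallest log2 fold change called among all genes was 0.77 in size, and the median standard error of the 40 was 0.16.

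**Figure D1:**
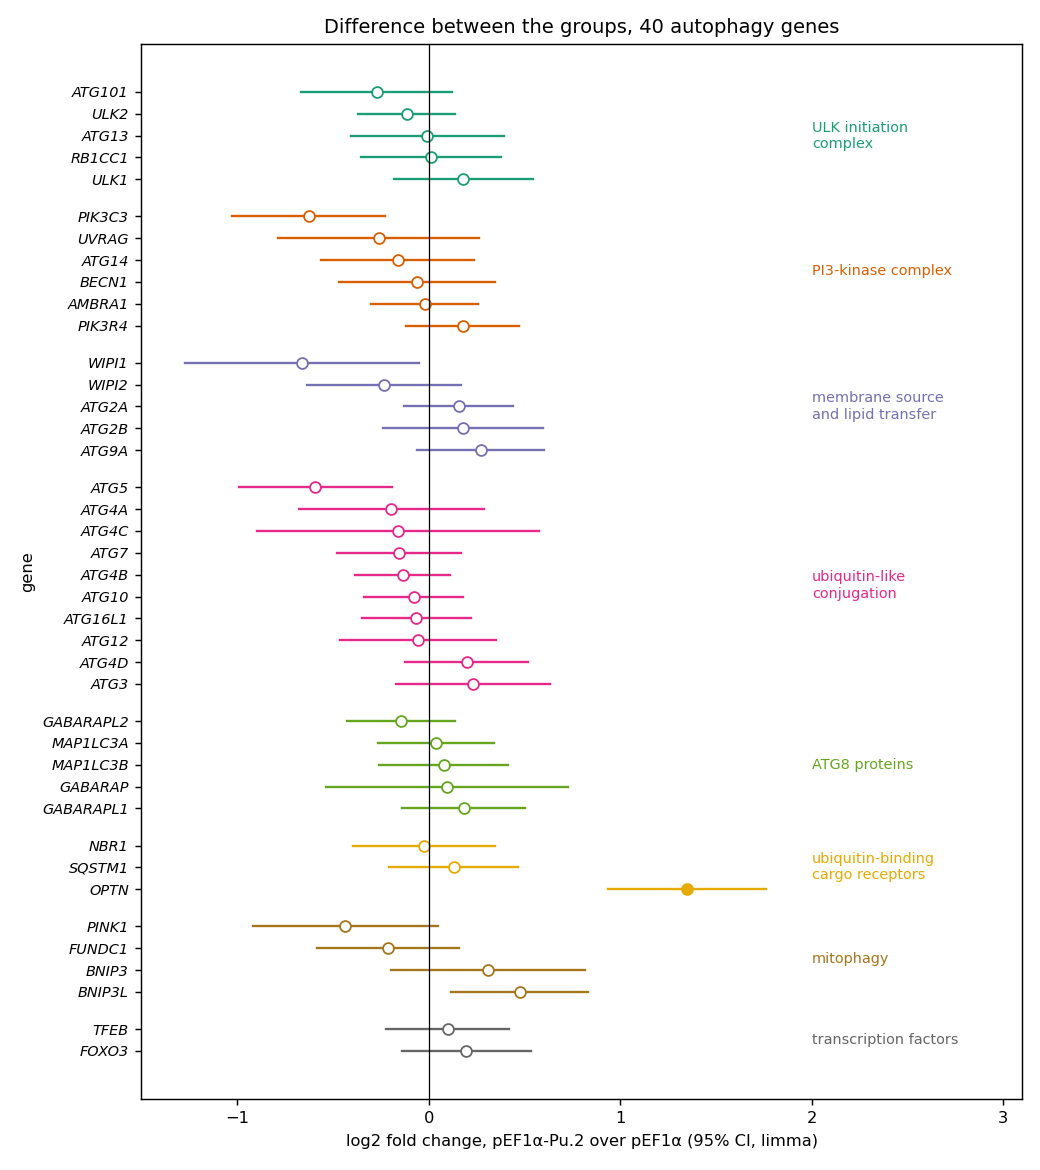
Log2 fold change of pEF1α-Pu.2 over pEF1α lines (horizontal axis) of each of the 40 genes (vertical axis), grouped and colored by role, with the 95% confidence interval from limma as a line. The filled symbol is OPTN at 1.35, the one gene called over all genes, and open symbols are genes that were not called, which lie between -0.66 and 0.47.

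OPTN had a log2 value of 6.49, 6.30 and 6.92 in vector clones 1, 2 and 3 and of 8.06, 7.71 and 7.98 in PU.2 clones 1, 2 and 3. All PU.2 clones lay above all vector clones, with a gap of 0.79 between the groups, and vector clone 3 was the nearest of the vector clones. The mean went from 6.57 ± 0.32 to 7.92 ± 0.19 (SD, n = 3 clones each). The log2 fold change was 1.35 (standard error, SE, 0.18, 95% confidence interval 0.93 to 1.76, limma adjusted p = 0.025), or 2.55-fold. Among all 18417 genes it ranked 43rd by p and 19th of those that were higher. The log2 fold change stayed between 1.21 and 1.52 whichever clone was left out. The call held without vector clone 3 (adjusted p = 0.0014) and was lost without any other clone (adjusted p = 0.057 to 0.13), and with each array centered on its median (adjusted p = 0.056).

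The other receptors of this kind are SQSTM1, also called p62, which collects ubiquitinated proteins, and NBR1, which does so beside it. SQSTM1 had log2 values of 7.04, 6.88 and 6.85 in the vector clones and of 7.32, 6.93 and 6.90 in the PU.2 clones. These ranges overlapped, and the log2 fold change was 0.13 (95% confidence interval -0.21 to 0.47, limma adjusted p = 0.86). NBR1 had values of 6.06 to 6.61 in the vector clones and of 6.13 to 6.36 in the PU.2 clones, a log2 fold change of -0.02 (95% confidence interval -0.40 to 0.35). The 95% intervals of SQSTM1 and NBR1 lay below that of OPTN, and the difference between the genes was not tested.

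Promoter sequences are shown for OPTN and for PIK3C3 and ATG5, the genes among the 40 with the widest gap in the other direction, since PU.2 keeps the DNA-binding domain of PU.1. Each is the 250 bases before a RefSeq start in build GRCh38.p14, 5′ to 3′ on the strand of the gene. Capitals mark matches on either strand to any of 4 motifs. GAGGAA is the core of the PU.1 site used in the study, and AGATAA is bound by GATA factors. CACGTG is the E-box bound by TFEB and its relatives. CACCC is a box bound by KLF factors.

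OPTN, chr10:13099832-13100081, plus strand: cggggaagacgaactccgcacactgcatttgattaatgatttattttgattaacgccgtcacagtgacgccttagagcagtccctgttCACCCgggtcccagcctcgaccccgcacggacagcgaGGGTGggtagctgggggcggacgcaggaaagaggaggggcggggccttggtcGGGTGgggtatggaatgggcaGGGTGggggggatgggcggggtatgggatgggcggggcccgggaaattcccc

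ATG5, chr6:106325438-106325687, minus strand: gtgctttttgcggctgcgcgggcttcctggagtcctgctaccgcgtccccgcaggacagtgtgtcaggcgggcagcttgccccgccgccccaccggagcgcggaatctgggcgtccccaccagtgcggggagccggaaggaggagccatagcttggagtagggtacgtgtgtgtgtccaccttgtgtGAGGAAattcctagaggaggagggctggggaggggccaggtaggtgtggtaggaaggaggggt

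PIK3C3, chr18:41954984-41955233, plus strand: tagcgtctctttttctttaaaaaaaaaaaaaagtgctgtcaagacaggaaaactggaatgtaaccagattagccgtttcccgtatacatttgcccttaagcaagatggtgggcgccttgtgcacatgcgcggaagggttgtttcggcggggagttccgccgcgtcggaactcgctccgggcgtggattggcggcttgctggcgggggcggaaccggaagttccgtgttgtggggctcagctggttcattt

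The OPTN window held 4 CACCC matches, at 162, 125, 73 and 52 bases before the start, and 0 of the other motifs. Of 34943 windows of this length over all genes, 54.7% held at least 1 CACCC match and 2.90% held 4 or more. The cutoff of 4 is the count of the OPTN window itself, and windows were not matched for base content. The share therefore does not measure how unusual this promoter is. The ATG5 window held 1 GAGGAA match, 63 bases before the start, a motif found in 23.6% of all windows. The PIK3C3 window held 0 matches to any of the 4 motifs. Windows were given for 34 of the 40 genes, and some genes have several, 46 windows in all. GAGGAA was found in 12 of the 46 and CACCC in 24, CACGTG in 3 (ATG3, ATG14 and BNIP3) and AGATAA in 2 (ATG13 and NBR1). AGATAA was found in 9.19% and CACGTG in 6.32% of all windows. OPTN and ATG5 each have a further RefSeq window. That of OPTN overlaps the one shown and held 5 CACCC matches, and that of ATG5 held 0 matches to any of the 4 motifs. WIPI1, the gene of the 40 with the lowest log2 fold change (-0.66), is not shown. Its window held 2 CACCC matches, at 77 and 50 bases before the start. Such matches describe the letters and do not show binding.

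**Figure D2:**
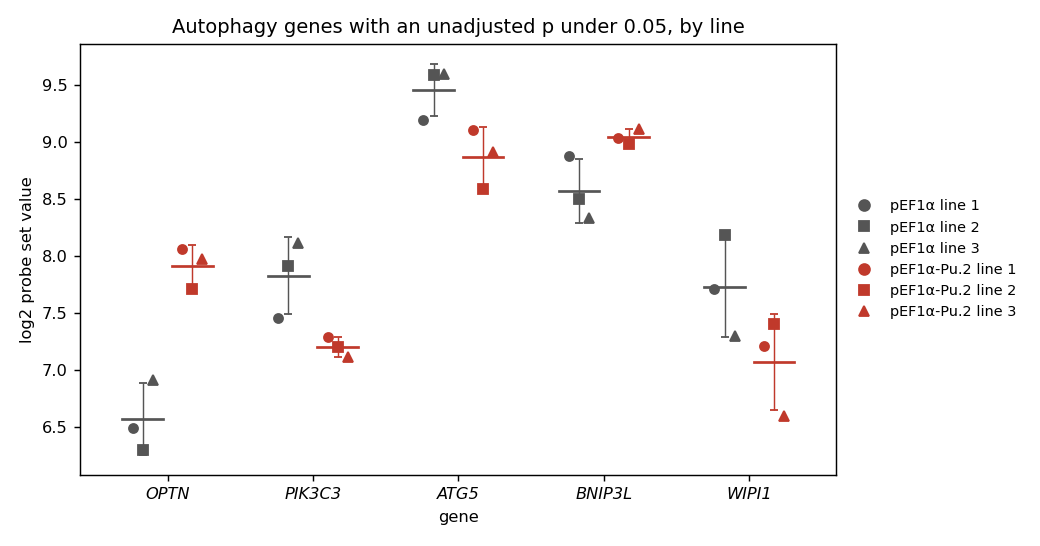
Log2 probe set value (vertical axis) in each of 6 monoclonal K562 lines of the 5 genes with an unadjusted p under 0.05 from limma, ordered by p. Gray symbols are pEF1α lines and red symbols pEF1α-Pu.2 lines, horizontal bars are means of 3 lines and error bars are SD. The groups lie apart in OPTN, PIK3C3, ATG5 and BNIP3L and overlap in WIPI1.

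Mitophagy can also run without ubiquitin, through receptors that sit in the outer mitochondrial membrane and bind ATG8 proteins themselves. BNIP3L, also called NIX, is the one of these that clears mitochondria from reticulocytes. It had log2 values of 8.88, 8.50 and 8.34 in vector clones 1, 2 and 3 and of 9.04, 8.98 and 9.12 in the PU.2 clones. The groups did not overlap, with a gap of 0.10 between vector clone 1 and PU.2 clone 2. The log2 fold change was 0.47 (SE 0.16, 95% confidence interval 0.12 to 0.83), or 1.39-fold, and it did not pass the test over all genes (limma adjusted p = 0.35). It lay between 0.36 and 0.63 whichever clone was left out, and was not called in any of these cases. Over the 6 lines the genes most like BNIP3L in their log2 values were IL15RA, ZNF534, LINC02716, ZXDA and AIPL1 (Pearson's r = 0.992 to 0.996 across 6 lines of 2 groups). Their own log2 fold changes were 0.18 to 0.50, and none of the 5 was called. They were picked as the highest r of all genes tested, so the size of r is no evidence of a link. ZNF534 and AIPL1 were dim, at most 4.15 and 4.79 in any line.

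BNIP3, a relative of BNIP3L that responds to low oxygen, had log2 values of 9.33, 9.64 and 10.15 in the vector clones and of 10.30, 9.82 and 9.93 in the PU.2 clones. Its highest vector value came from clone 3, and the groups overlapped (log2 fold change 0.31, 95% confidence interval -0.20 to 0.81). FUNDC1, another outer membrane receptor, had a log2 fold change of -0.21 (95% confidence interval -0.58 to 0.16). PINK1, the kinase that marks damaged mitochondria for ubiquitination, had log2 values of 6.33, 6.62 and 5.96 in the vector clones and of 5.85, 6.19 and 5.57 in the PU.2 clones. These ranges overlapped through vector clone 3 and PU.2 clone 2. Its log2 fold change was -0.43 (95% confidence interval -0.92 to 0.05, limma adjusted p = 0.59). Of these 4 mitophagy genes BNIP3L and BNIP3 thus had estimates above 0 and FUNDC1 and PINK1 below 0, and none was called.

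The class III PI3-kinase complex makes the lipid PI3P on the forming membrane. Of the 6 genes grouped under it 0 were called (all genes 0.369%). A log2 fold change below 0 was found in 5, leaving 16.7% above 0 (all genes 54.1%), with a median of -0.11. This count rested in part on vector clone 3, without which UVRAG and BECN1 had log2 fold changes of 0.0014 and 0.080. PIK3C3, the catalytic subunit VPS34, had log2 values of 7.46, 7.91 and 8.11 in vector clones 1, 2 and 3 and of 7.29, 7.20 and 7.11 in the PU.2 clones. The groups lay apart by 0.17, and the vector clones were spread more widely (SD 0.33) than the PU.2 clones (SD 0.09). The log2 fold change was -0.63 (SE 0.17, 95% confidence interval -1.03 to -0.23), which did not pass the test over all genes (limma adjusted p = 0.26). It lay between -0.81 and -0.49 whichever clone was left out, and was not called in any of these cases. UVRAG, a subunit of the form of the complex that acts at late stages and on endosomes, had 7.18, 7.32 and 8.04 in the vector clones and 7.34, 7.40 and 7.01 in the PU.2 clones. Vector clone 3 stood above the 5 others, and the log2 fold change of -0.26 (95% confidence interval -0.79 to 0.26) was 0.0014 without it. BECN1, ATG14 and PIK3R4, the scaffold and regulatory subunits, had log2 fold changes of -0.06, -0.16 and 0.18. AMBRA1, a regulator grouped with them and not a subunit, had -0.02.

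The ubiquitin-like conjugation systems attach ATG12 to ATG5 and ATG8 proteins to lipid. Of their 10 genes 0 were called (all genes 0.369%). A log2 fold change below 0 was found in 8, leaving 20% above 0 (all genes 54.1%), with a median of -0.11. This count too rested in part on vector clone 3, without which ATG4A and ATG4C had 0.00070 and 0.14. ATG5, which joins ATG12 and ATG16L1 in the ligase for lipid attachment, had log2 values of 9.19, 9.59 and 9.60 in the vector clones and of 9.10, 8.59 and 8.92 in the PU.2 clones. The groups lay apart by 0.09, between vector clone 1 and PU.2 clone 1. Its log2 fold change was -0.59 (SE 0.17, 95% confidence interval -0.99 to -0.19, limma adjusted p = 0.29). ATG3, the enzyme that carries out the last step of ATG8 conjugation, had 9.08, 9.48 and 9.71 in the vector clones and 9.68, 9.49 and 9.80 in the PU.2 clones. These values overlapped (log2 fold change 0.23, 95% confidence interval -0.17 to 0.63). ATG4B, a protease that trims ATG8 proteins, was separated between the groups by 0.03 at a log2 fold change of -0.14, and its second probe set had -0.16. The other proteases ATG4A, ATG4C and ATG4D had log2 fold changes of -0.19, -0.16 and 0.20. ATG7, the activating enzyme, had -0.15 and ATG10, ATG12 and ATG16L1 had -0.08, -0.06 and -0.06.

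The early steps of membrane supply held 1 gene at an unadjusted p under 0.05. WIPI1, which binds PI3P on the forming autophagosome, had log2 values of 7.71, 8.18 and 7.30 in the vector clones and of 7.21, 7.40 and 6.59 in the PU.2 clones. Vector clone 3 lay below PU.2 clone 2, so that the groups overlapped. The log2 fold change was -0.66 (SE 0.27, 95% confidence interval -1.27 to -0.05, limma adjusted p = 0.47). ATG9A, the membrane protein of the vesicles that seed the autophagosome, had 6.76, 6.58 and 6.89 in the vector clones and 7.09, 6.79 and 7.17 in the PU.2 clones. The log2 fold change of 0.27 (95% confidence interval -0.06 to 0.60) was not called either. WIPI2, which recruits ATG16L1, had a log2 fold change of -0.23, and the lipid transfer proteins ATG2A and ATG2B had 0.16 and 0.18. In the ULK complex, the kinase complex that starts the process, ATG101 had 7.00, 6.73 and 6.42 in the vector clones and 6.65, 6.34 and 6.33 in the PU.2 clones. The kinase ULK1 had 5.86, 5.87 and 5.53 in the vector clones and 6.06, 6.06 and 5.68 in the PU.2 clones. Both sets of values overlapped between the groups, with log2 fold changes of -0.27 (95% confidence interval -0.66 to 0.12) and 0.18 (95% confidence interval -0.18 to 0.54). RB1CC1, ATG13 and ULK2 had log2 fold changes of 0.01, -0.01 and -0.11, and ULK2 was dim, under 5.37 on average.

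The ATG8 proteins coat the membrane and bind the receptors. Their 5 genes had log2 fold changes between -0.14 and 0.18, with adjusted p of 0.79 or more from limma. GABARAPL1 had log2 values of 5.67, 5.63 and 5.81 in the vector clones and of 5.90, 6.09 and 5.66 in the PU.2 clones, with a 95% confidence interval of the difference of -0.14 to 0.51. GABARAPL2 had 9.43, 9.25 and 9.16 in the vector clones and 9.23, 9.13 and 9.05 in the PU.2 clones, with an interval of -0.43 to 0.14. The groups overlapped in both. GABARAP and the LC3 genes MAP1LC3A and MAP1LC3B had log2 fold changes of 0.10, 0.04 and 0.08. The MAP1LC3B probe set was near the median of 5.37, at 5.40 to 5.84. A brighter probe set that MAP1LC3B shares with its near copy MAP1LC3B2, at 9.26 to 9.70, had a log2 fold change of -0.06. These genes cannot be told apart there.

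FOXO3 and TFEB are transcription factors that activate autophagy genes, TFEB also those of the lysosome, and both are regulated largely by their place in the cell, which RNA does not show. FOXO3 had log2 values of 5.19, 5.23 and 4.82 in the vector clones and of 5.14, 5.37 and 5.32 in the PU.2 clones. TFEB had 5.49, 5.32 and 5.20 in the vector clones and 5.30, 5.64 and 5.37 in the PU.2 clones. Both overlapped between the groups, with log2 fold changes of 0.20 (95% confidence interval -0.14 to 0.53) and 0.10 (95% confidence interval -0.22 to 0.42). The FOXO3 probe set was dim, under 5.37 on average. A brighter probe set that FOXO3 shares with its near copy FOXO3B had log2 values of 8.52 to 9.27. Its log2 fold change was 0.36 (SE 0.19, limma adjusted p = 0.68 over all probe sets).

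**Figure D3:**
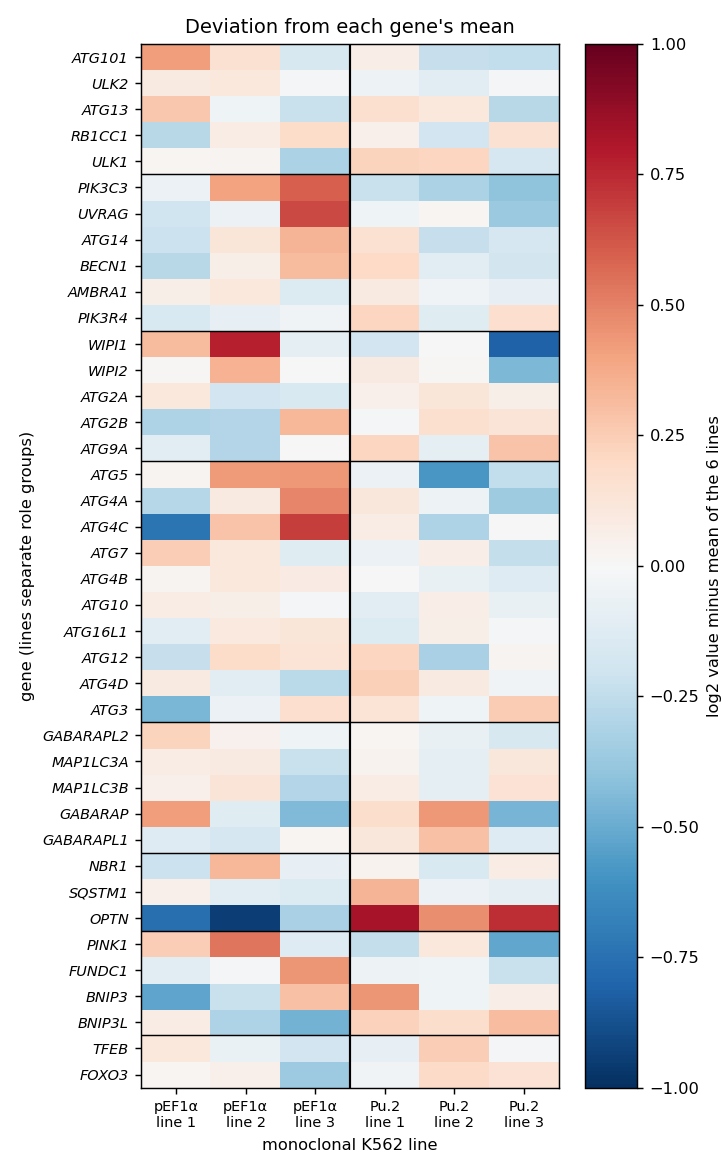
Log2 value of each of the 40 genes (rows, horizontal rules separate role groups) in each of the 6 lines (columns), as the difference from the gene's mean over the lines, from blue (lower) to red (higher). OPTN is blue in all 3 pEF1α lines and red in all 3 pEF1α-Pu.2 lines, and the reddest cell of UVRAG is pEF1α line 3 at a log2 value of 8.04.

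Clones of 1 group also differed from each other. The vector clones spanned more than 0.5 in 17 of the 40 genes and the PU.2 clones in 6. Vector clone 3 correlated across genes at r = 0.979 to 0.982 with the PU.2 clones and at 0.973 and 0.981 with the other vector clones. It lay more than 0.5 outside the range of vector clones 1 and 2 in UVRAG, ATG2B and BNIP3, which is 3 of the 40 genes (7.50%) beside 6.64% of all genes. Averaged over the 40 genes each clone lay within 0.08 of the mean of all 6, with PU.2 clone 3 lowest at -0.08 and PU.2 clone 1 highest at 0.08, so the extremes of this average came from the same group.

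Genes that work beside the 40 were not called either. Of all genes 0.369% were called, 9.53% had an unadjusted p under 0.05, and 13.8% did not overlap between the groups. Of 30 other measured autophagy and mitophagy genes, 0 were called, and 3 (10%) had an unadjusted p under 0.05 and were higher. The groups did not overlap in 16.7% of them, and the median log2 fold change was 0.02. WDFY3, a scaffold for clearing protein aggregates, had log2 values of 6.66, 6.98 and 7.19 in the vector clones and of 7.49, 7.19 and 7.53 in the PU.2 clones. Vector clone 3 and PU.2 clone 2 were nearly level, so the groups were only just apart, at a log2 fold change of 0.46 (limma adjusted p = 0.41). CALCOCO2, also called NDP52, a receptor that like OPTN binds ubiquitin, had a log2 fold change of -0.34 (95% confidence interval -0.74 to 0.07).

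Of 27 measured genes of the lysosome and of its fusion with the autophagosome, 0 were called, and the median log2 fold change was -0.01. Unadjusted p under 0.05 were found for 3 higher and 2 lower genes (18.5%; all genes 9.53%). The groups did not overlap in 5 higher and 2 lower genes (25.9%; all genes 13.8%). VPS41, a subunit of the HOPS complex that tethers the membranes, had log2 values of 8.16, 8.41 and 8.64 in the vector clones and of 7.94, 7.72 and 7.42 in the PU.2 clones. VAMP8, a SNARE of that fusion, had 10.98, 10.77 and 10.54 in the vector clones and 10.22, 10.38 and 9.61 in the PU.2 clones. In both all PU.2 clones lay below all vector clones, with log2 fold changes of -0.71 (95% confidence interval -1.11 to -0.31, limma adjusted p = 0.20) and -0.69 (95% confidence interval -1.18 to -0.20, adjusted p = 0.32). The 3 higher genes were MCOLN1, RAB7A and EPG5, with log2 fold changes of 0.50, 0.35 and 0.32 (limma adjusted p = 0.22, 0.38 and 0.49). In each of them all PU.2 clones lay above all vector clones.

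Of 27 measured genes in a list around MTORC1 and AMPK, the kinases that restrain and start autophagy, 0 were called. The list also held the transcription factors TFE3, MITF, FOXO1, FOXO4, GATA1 and KLF1, so its counts do not cover kinase regulators alone. Unadjusted p under 0.05 were found for 2 higher genes, FOXO4 among them, and 3 lower genes, MITF among them (18.5%; all genes 9.53%). The groups did not overlap in 5 higher genes and 1 lower gene (22.2%; all genes 13.8%). The median log2 fold change was 0.08. DDIT4, a stress-induced inhibitor of MTORC1, had log2 values of 6.92, 6.49 and 5.99 in the vector clones and of 6.37, 5.56 and 5.26 in the PU.2 clones. These overlapped, with a log2 fold change of -0.74 (SE 0.31, limma adjusted p = 0.51). SESN1, another such inhibitor, had a log2 fold change of -0.48 (SE 0.21, adjusted p = 0.52).

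Some genes of other cell type lists were called beside OPTN. Of 15 measured erythroid genes 4 were called, all higher (ALAS2, HBZ, RHCE and TMOD1), 11 were not, and the median log2 fold change was 1.09. With 1 clone left out ALAS2 was called in 6 of 6 cases, HBZ in 4, RHCE in 2 and TMOD1 in 1, and the number of erythroid genes called was 9 without vector clone 3 and 1 to 3 otherwise. RHCE and TMOD1 were also lost with median centering. ALAS2, the first enzyme of heme synthesis in red cells, was higher by 3.01 on the log2 scale (SE 0.30, limma adjusted p = 0.0068). HBD, the delta globin gene, had a log2 fold change of 1.79 (95% confidence interval 0.71 to 2.86, limma adjusted p = 0.23). The list holds genes that the study chose on these arrays, so its direction is not independent evidence. Summed on a linear scale, the erythroid genes ranged from 9308 to 13534 in the vector clones, where clone 3 was highest, and from 18392 to 20837 in the PU.2 clones. HBE1, the brightest of them, weighed most in this sum and was not called (limma adjusted p = 0.47). It had log2 values of 12.28, 12.61 and 12.89 in the vector clones and of 12.99, 12.95 and 13.06 in the PU.2 clones. Of 9 markers of monocytes and granulocytes 4 were at or above the median of 5.37 on average, 1 was called, LYZ, and the median log2 fold change was -0.09. LYZ, or lysozyme, had log2 values of 6.72, 6.58 and 5.71 in the vector clones and of 3.79, 3.66 and 3.64 in the PU.2 clones (log2 fold change -2.64, limma adjusted p = 0.0052). MS4A3, a gene of early granulocytes, had 10.32, 8.55 and 8.25 in the vector clones and 6.12, 6.97 and 4.33 in the PU.2 clones, a log2 fold change of -3.23 that was not called (limma adjusted p = 0.15). Its groups did not overlap. Those of FCGR2A, an Fc receptor gene, did, since it had 8.86, 9.34 and 4.14 in the vector clones and 4.01, 4.93 and 5.48 in the PU.2 clones. The summed linear level of the 9 was 648 to 2191 in the vector clones and 354 to 430 in the PU.2 clones, and MS4A3 and FCGR2A held 49.9% to 79.5% of it in the former. Without them it was 325 to 450 and 273 to 289. The 9 did not move as a set. A log2 fold change above 0 was found in 3 (33.3%, all genes 54.1%), namely CSF1R (0.13), ITGAM (0.16) and MPO (0.22). Among the 6 below 0 were also CD68 (-0.64) and ELANE (-0.09). CD14, a monocyte marker, was under 5.37 in every clone.

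Of 4 measured lymphocyte markers 0 were called, but CD3D, a chain of the T cell receptor complex, did not overlap between the groups. It had 6.74, 6.98 and 6.08 in the vector clones and 5.34, 5.58 and 5.12 in the PU.2 clones (log2 fold change -1.25, limma adjusted p = 0.090). Without vector clone 3 CD3D and MS4A3 were called as well (limma adjusted p = 0.0022 and 0.035). MS4A1, which encodes CD20, had a log2 fold change of -0.13. All 7 measured markers of megakaryocytes and platelets were under 5.37 on average, 0 were called, and the largest log2 fold changes were 0.18 for PF4 and 0.13 for PPBP, both platelet chemokines. The part of the erythroid and myeloid genes in the result for OPTN was not tested.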

How the data were processed

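One array (Affymetrix Human Gene 1.0 ST) was read for total RNA of each of 6 monoclonal K562 lines. The deposited log2 values, 1 for each probe set on each array, had been made by the authors with Affymetrix Expression Console. Its algorithm, its version and scan batches are not given in sources used here, so how background correction and normalization shape small differences cannot be checked.

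The platform annotation gave 1 symbol for 19460 of 33297 probe sets, several for 1754 and none for 12083. Each of 18417 genes was read by its brightest probe set with 1 symbol, dim ones included. Gene IDs of all 40 genes were found in the gene table of GRCh38.p14. Groups came from the sample titles and were compared in R 4.3.3 with limma 3.58.1, by lmFit and plain eBayes, and p-values were adjusted by Benjamini-Hochberg over all genes (threshold 0.05). The p-values set each difference against the spread between clones of a group, which eBayes moderates over all genes. The number of arrays limits the precision. The code was also run on simulated, independent normal values with planted differences, which does not show its error rate on these arrays.

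The members and lists were chosen with earlier results of these data known. Values in each clone are given for genes called or at an unadjusted p under 0.05 and for the 2 genes of each role with the largest difference. Other lists are described by their called genes and their 2 largest differences. NBR1, BNIP3, FUNDC1, ATG2B, ATG4B, CD14, FCGR2A, CD68, ELANE, CSF1R, ITGAM, MPO, HBE1, MCOLN1, RAB7A, EPG5, FOXO4 and MITF were singled out after their values were seen. So were the motifs and promoters. The fit was repeated with a replicate block, without each clone in turn, without dim probe sets, after quantile, median or cyclic loess normalization, with a trend and robust eBayes, with array weights, with probe sets averaged per gene, and with probe sets of several symbols.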

Additional observations from a re-analysis of the deposited data

How the results depend on the processing

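OPTN was called in 8 of 9 alternatives that kept all lines, with a log2 fold change of 1.32 to 1.53 over the 9, and in 1 of 6 that left out 1 clone. With 1 clone left out the number of the 40 genes called was 0 to 1, of all genes 20 to 432, of erythroid genes 1 to 9, and of the other 3 lists 0. The highest counts over all genes and erythroid genes came without vector clone 3, where all other leave-outs gave at most 42 genes over all, and the median log2 fold change of the 40 genes ran from -0.06 to 0.02. Leaving out 1 clone turned the sign of 14 of the 40 genes, all at 0.26 or less in size with all clones and none called. Their log2 fold changes ran from -0.43 to 0.0014 for UVRAG, -0.0050 to 0.21 for SQSTM1, -0.0016 to 0.18 for TFEB, -0.12 to 0.13 for ATG13, -0.12 to 0.11 for RB1CC1, -0.22 to 0.080 for BECN1, -0.095 to 0.027 for AMBRA1, -0.39 to 0.00070 for ATG4A, -0.57 to 0.14 for ATG4C, -0.19 to 0.093 for ATG12, -0.064 to 0.090 for MAP1LC3A, -0.049 to 0.16 for MAP1LC3B, -0.10 to 0.35 for GABARAP and -0.14 to 0.14 for NBR1. Signs also turned for MAP1LC3A with quantile normalization (-0.0068), cyclic loess (-0.012) and array weights (-0.064), for RB1CC1 with median centering (-0.021) and array weights (-0.091), for ATG13 with cyclic loess (0.0013) and array weights (0.055), and for MAP1LC3B with array weights (-0.076) and probe sets of several symbols (-0.060). With median centering 0 of the 40 genes and 2 erythroid genes were called.

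Array weights gave vector clone 2 a weight of 5.52 and vector clones 1 and 3 weights of 0.40 and 0.48, so that the vector mean rested mostly on 1 clone. With them 1349 genes were called over all genes (7.32%), 5 of the 40 (OPTN and BNIP3L higher, PIK3C3, ATG5 and WIPI1 lower), 3 of the lysosome list, 4 of the regulator list and 10 erythroid genes, and the median of the 40 was -0.087. The replicate numbers did not pair the lines (r = -0.147, -0.148 and -0.0445 for deviations of same-numbered lines). With the replicate block 64 genes were called over all genes, OPTN among them, and 2 erythroid genes (RHCE and TMOD1 were lost), while CD3D was called. The other alternatives left each of these counts within 1.5 times. ULK2, ATG4B, MAP1LC3A and FOXO3 were dimmer on average than the median probe set, and no measure of background was used.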
